A study of Homo sapiens with 34 samples.

Results

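MDAPCa2a, a prostate cancer line labelled as bone metastatic, was compared with RWPE, a line labelled as non-tumorigenic prostate epithelium, when both were grown on plastic in their own control medium. The comparison used 4 of the 34 polyA RNA-seq libraries of the study, 2 of each line, which were chosen by the line and the condition in the labels. The whole study set 4 prostate lines (RWPE, LNCaP, VCaP and MDAPCa2a) on plastic or on a coating of amorphous calcium phosphate (ACP), a bone-like mineral, with changes of serum and androgen. The plastic control libraries had no added androgen and were labelled as continuous cultures, while the treatment protocol has plastic cultures grown for 4 days after passage. RWPE grew in keratinocyte serum-free medium with EGF and bovine pituitary extract, and MDAPCa2a in BRFF-HPC1 medium with fetal bovine serum, on plastic coated with FNC mix, a protein coating that the line needs. All media held penicillin and streptomycin. Line, medium, serum and coating therefore changed together and cannot be told apart in this comparison. A further 5 libraries of the same lines served as a check that shares no library with it: 2 of MDAPCa2a and 3 of RWPE, grown for 4 days on ACP without the protein coating, in charcoal-stripped serum with androgen. Their titles call the androgen DHT and their treatment labels testosterone, both at 100 mM. Each line is 1 cell line, so the comparison describes these lines and not normal prostate and cancer in general. The labels do not say that the replicates were separate cultures. The p-values therefore measure only a spread between libraries of the same group, estimated over all 34 libraries of the study.

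The prostate gland is lined by 2 epithelial layers. Luminal cells face the lumen, depend on androgen and secrete kallikrein proteases, prostatic acid phosphatase and other seminal proteins, and most prostate cancers keep this luminal programme. Basal cells sit on the basement membrane, anchor to it through hemidesmosomes, express the transcription factor p63 with keratins 5 and 14, and can turn on squamous genes in culture. RWPE lines are known to have been immortalised with genes of a papillomavirus and to keep many basal features.

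The 4 libraries held 34925198 and 38295362 counted reads in MDAPCa2a and 37862997 and 39959887 in RWPE. Libraries of the same line correlated across genes at 0.996 on the log scale and still differed by more than sampling noise, so each counted as 1 replicate. CPM (counts-per-million) is a read count relative to its scaled library size, and values in a pair are replicate 1 and replicate 2. A log2 difference is the fitted MDAPCa2a minus RWPE value. The value after ± is an approximate standard error worked back from edgeR's quasi-likelihood F test. It is the absolute log2 difference divided by the square root of F. CPM is not divided by gene length, so it compares libraries and not genes. All 8 plastic control libraries of the 4 lines stood apart from the others in holding low levels of liver transcripts: the fibrinogen gene FGG was at 2.38 and 1.41 CPM in MDAPCa2a and 2.07 and 2.08 CPM in RWPE, and at 0 in the 5 ACP libraries. Of 8 liver markers tested, 0 passed between the lines on plastic in edgeR or in DESeq2, and 0 reached an unadjusted p below 0.05. In bulk libraries, fewer cells of a kind and less RNA per cell cannot be told apart.

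Of 17313 genes tested, 9817 (56.7%) passed an adjusted p below 0.05 in edgeR's quasi-likelihood test, of which 4903 (28.3%) were higher in MDAPCa2a and 4914 (28.4%) lower. With a difference of at least 2-fold asked as well, 7227 (41.7%) passed, of which 3516 (20.3%) were higher and 3711 (21.4%) lower. By the fitted value the lower side held the larger steps: 370 genes were at least 64-fold higher and 716 at least 64-fold lower. At 1024-fold the counts were 11 and 59. These counts include genes with 0 reads in a line, such as MAGEC1 and KLK10, whose reads give only a lower bound on the fold. In 83.9% of genes the 2 libraries of one line lay wholly above those of the other, so a lack of overlap alone says little here. The median difference over all genes was -0.002 on the log2 scale, and other scalings moved it by less than 0.1. Simulated counts had the depth and spread of these libraries, with 200 changed genes a run. The test recovered 43% of genes changed by 1 on the log2 scale and 94.5% of those changed by 2. With so few genes changed, the adjusted threshold was stricter there than in these data, so the recovery here was not measured. Differences of 2-fold or less could still be missed. The groups of genes below are read against the shares of all genes that passed.

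**Figure D1:**
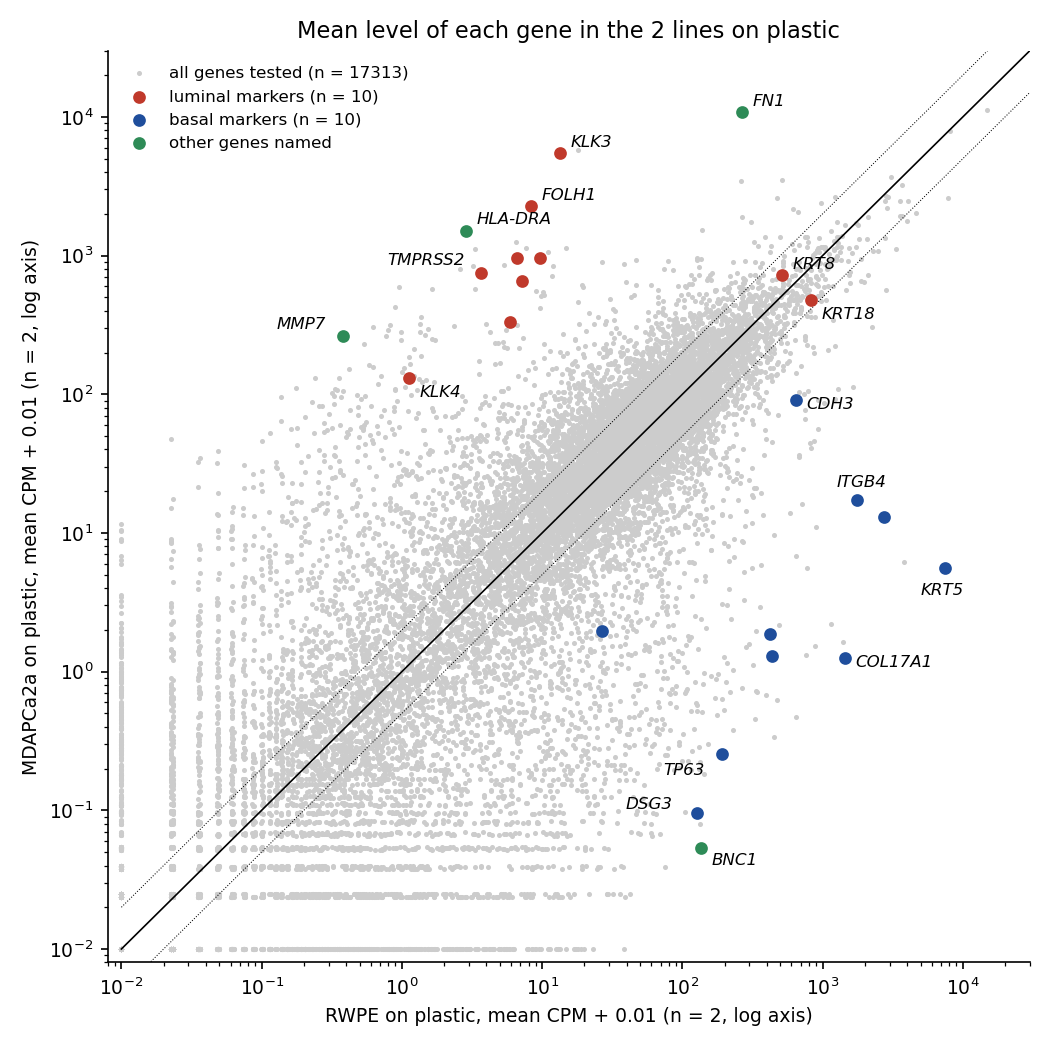
Mean CPM of each of the 17313 genes tested in RWPE (x axis, n = 2) and MDAPCa2a (y axis, n = 2) on plastic, both on log axes with 0.01 CPM added; the solid line marks equal levels and the dotted lines 2-fold differences. Luminal markers other than KRT8 and KRT18 lie far above the line and all 10 basal markers below it, with FN1 the gene named furthest up.

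The genes of luminal secretion were the clearest group on the higher side. Of 26 secretory and androgen-responsive genes, all tested, 22 were higher in MDAPCa2a, 2 lower and 2 did not pass, with a median log2 difference of 5.38 where that of all genes was -0.002. KLK3, which encodes prostate-specific antigen, a protease of seminal fluid, stood at 5356 and 5565 CPM in MDAPCa2a and at 7.71 and 19.1 CPM in RWPE. KLK2, the protease that activates it, stood at 612 and 702 CPM against 0.957 and 13.4 CPM. Both were high in both MDAPCa2a libraries and low in both RWPE libraries, with log2 differences of 8.67 ± 0.71 and 6.51 ± 0.84 (edgeR adjusted p = 1.7e-10 and 3.4e-07). Reads of KLK2 and KLK3 may have been split between the 2 related genes, so their levels are less certain than those of single-copy genes.

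The 2 kallikrein genes lie side by side, and their promoters are shown because they share a site beside a shared difference.
The 250 bases before each start are given 5′ to 3′ from RefSeq (GRCh38.p14, plus strand), KLK3 at chr19:50854665-50854914 and KLK2 at chr19:50873189-50873438.
Capitals mark the match to GAACANNNNGTNCT, a relaxed form of the androgen response element in which N is any base.
KLK3: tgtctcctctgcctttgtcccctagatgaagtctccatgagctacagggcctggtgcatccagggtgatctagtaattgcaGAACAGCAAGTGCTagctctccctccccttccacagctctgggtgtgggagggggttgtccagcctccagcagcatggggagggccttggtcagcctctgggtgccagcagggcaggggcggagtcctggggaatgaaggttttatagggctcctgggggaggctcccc
KLK2: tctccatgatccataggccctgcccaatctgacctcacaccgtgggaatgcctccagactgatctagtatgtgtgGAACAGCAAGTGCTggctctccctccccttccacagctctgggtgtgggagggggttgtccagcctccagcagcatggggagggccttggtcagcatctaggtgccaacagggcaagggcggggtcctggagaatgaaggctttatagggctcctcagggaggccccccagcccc

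Both promoters hold the same 14 letters, GAACAGCAAGTGCT, at bases -169 to -156 in KLK3 and -175 to -162 in KLK2. Searched on both strands, the relaxed motif is in 76 of 35116 promoters of this length (0.216%), and the promoters of KLK4, AZGP1 and SLC45A3 in the table do not hold it. Shifted by 6 bases, the sequences of KLK3 and KLK2 are identical at 185 of 244 positions (75.8%). These are matches of letters in the reference and not measured binding.

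Other secretory genes followed the same pattern. FOLH1, which encodes the membrane antigen PSMA, stood at 2424 and 2136 CPM in MDAPCa2a and 4.49 and 12.2 CPM in RWPE (log2 difference 8.09 ± 0.52, adjusted p = 2e-12). TMPRSS2, a surface protease under androgen control, stood at 741 and 750.3 CPM against 1.09 and 6.23 CPM (7.66 ± 0.58), and AZGP1, a secreted zinc-binding glycoprotein, at 602 and 552 CPM against 1.17 and 2.1 CPM (8.45 ± 0.59). The libraries of the 2 lines did not overlap for any of these genes. ACPP (prostatic acid phosphatase) was at 358 and 303 CPM against 1.41 and 10.4 CPM, and the membrane transporter SLC45A3 at 897 and 1025 CPM against 7.34 and 11.9 CPM. MSMB, a seminal protein of luminal cells, was at 28.8 and 40.3 CPM in MDAPCa2a and at 0.0532 and 0 CPM, 2 reads in all, in RWPE, a ratio of 1340 (95% counting interval 371 to 11071). Both members that were lower are also targets of the glucocorticoid receptor: FKBP5, a chaperone partner of steroid receptors, at 178 and 218 CPM against 846 and 901 CPM in RWPE (-2.14 ± 0.29), and TSC22D3 at 82.8 and 77.6 CPM against 158 and 213 CPM (-1.21 ± 0.28, adjusted p = 0.00064). NR3C1, which encodes that receptor, was at 63.4 and 54.3 CPM against 134 and 140.2 CPM (-1.22 ± 0.30). Whether these differences are linked was not tested, and the media differed between the lines.

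The size of the luminal differences rests on very low RWPE levels that differed between its 2 libraries. Of 18 members with at least 1 CPM in both RWPE libraries, 17 were higher in replicate 2, by a median of 1.45 times, where the median over all genes was 0.997. Without RWPE replicate 2 the log2 differences of KLK3, KLK2, TMPRSS2, FOLH1 and ACPP were 9.47, 9.42, 9.41, 8.99 and 7.87, and without RWPE replicate 1 they were 8.14, 5.60, 6.88, 7.53 and 4.97. For 14 of the 24 members called, the level in the lower line was under 0.5% of the highest mean of another line in the study, such as VCaP for KLK2 and ACPP (4035 and 3028 CPM). Over all 9817 genes called this held for 1226; whether part of such low levels came from other libraries was not tested.

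**Figure D2:**
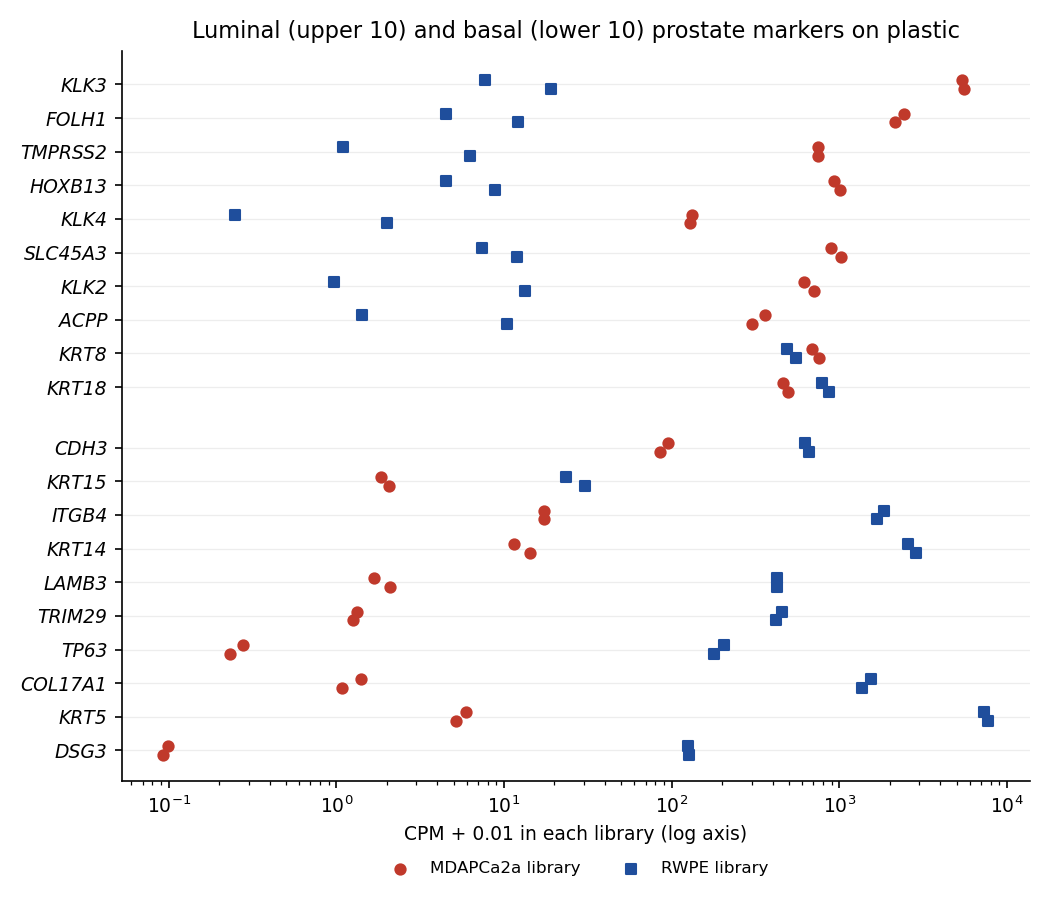
CPM of 10 luminal and 10 basal prostate markers in each of the 4 plastic libraries (x axis, log scale, 0.01 CPM added; circles MDAPCa2a, squares RWPE, 1 point a library). KLK3 to ACPP lie far to the right in MDAPCa2a, KRT8 and KRT18 lie close together in the lines, and every basal marker lies to the right in RWPE.

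The labels of both lines could be set against these markers. Of the 10 luminal markers, 8 were higher in MDAPCa2a. The summed level of all 10 was 12590 to 12870 CPM against 1296 to 1498 CPM in RWPE. Most of the RWPE sum was KRT8 and KRT18, so it overstates the RWPE level of the 8 markers that differed upward. All 10 basal markers were lower in MDAPCa2a, with summed levels of 128.8 to 137 CPM against 15070 to 15510 CPM. The exceptions among luminal markers were the simple keratins: KRT8 at 683 and 756 CPM against 485 and 549.7 CPM did not pass (adjusted p = 0.068), and KRT18, at 463 and 496 CPM against 784 and 865 CPM, was lower in MDAPCa2a (-0.78 ± 0.20).

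Of 26 transcription factors of the prostate lineage 12 were higher, 11 lower and 3 did not pass (median 0.37). HOXB13, the homeobox factor of the prostate and distal gut, stood at 924 and 1004 CPM in MDAPCa2a and 4.49 and 8.79 CPM in RWPE (7.18 ± 0.34, adjusted p = 1e-14). FOXA1, the pioneer factor of luminal chromatin, stood at 1119.8 and 1141 CPM against 12.6 and 17 CPM (6.25 ± 0.26). SPDEF, an ETS factor of secretory cells, was at 292 and 349 CPM against 0.478 and 2.18 CPM (7.90 ± 0.42; 9.37 without RWPE replicate 2). These 3 factors and GATA2 (5.66), EHF (3.54) and SOX9 (2.86) were higher in both MDAPCa2a libraries than in either RWPE library. On the other side stood TP63, which encodes p63, at 0.268 and 0.221 CPM in MDAPCa2a and 205 and 179 CPM in RWPE (-9.59 ± 0.60, adjusted p = 1.5e-12). BNC1, a zinc-finger factor of basal keratinocytes, was at 0.0596 and 0.0276 CPM against 132 and 141 CPM, 3 reads in all in MDAPCa2a, a ratio of 3177 (95% counting interval 1087 to 15408). FOXA2, known from neuroendocrine prostate, was at 0.0298 and 0.0829 CPM against 10.9 and 4.66 CPM (-6.98; -7.84 without MDAPCa2a replicate 2).

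Of 20 keratins tested, 15 were lower in MDAPCa2a, 1 was higher and 4 did not pass, with a median of -4.52. The 1 on the higher side was KRT19, a keratin of simple epithelium (339 and 420.2 CPM against 160.5 and 221 CPM, 0.99 ± 0.40), which did not pass without any 1 of the 4 libraries (adjusted p = 0.0527 to 0.227), in DESeq2 (0.0522) or with its size factors in edgeR (0.0624). KRT5, the partner of keratin 14 in basal cells, stood at 7242 and 7755 CPM in RWPE and 5.96 and 5.19 CPM in MDAPCa2a (-10.39 ± 1.65, adjusted p = 7.8e-06). KRT7 was at 1247 and 1551 CPM against 1.7 and 1.57 CPM (-9.74 ± 0.89), and KRT17, a stress keratin, at 4146 and 3435 CPM against 6.59 and 5.75 CPM (-9.26 ± 1.05). Both RWPE libraries were far above both MDAPCa2a libraries in each case. KRT6A, KRT6B and KRT6C, and KRT14, KRT16 and KRT17, are closely related genes, so counts may be split among them. KRT6B had 0 reads in both MDAPCa2a libraries, which puts it at least 197-fold lower there, taking 3 counts over the group as the floor. KRT13 was uneven in RWPE, at 2.74 and 14.3 CPM against 0.0298 and 0.0552 CPM in MDAPCa2a, a ratio of 201 (95% counting interval 68.5 to 978).

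The anchors of a basal cell were lower as a set. Of 25 hemidesmosome and basement membrane genes, 18 were lower, 5 higher and 2 did not pass (median -2.47). COL17A1, the transmembrane collagen of hemidesmosomes, stood at 1541 and 1363 CPM in RWPE and 1.4 and 1.08 CPM in MDAPCa2a (-10.19 ± 0.73). ITGB4, the integrin chain that binds laminin there, was at 1853 and 1671 CPM against 17.3 and 17.4 CPM (-6.67 ± 0.59), and its partner ITGA6 at 479.6 and 488 CPM against 77 and 63.6 CPM (-2.78 ± 0.26). The laminin chains did not move alike: LAMB3 was at 426 and 424 CPM in RWPE against 1.67 and 2.07 CPM (-7.82), and LAMA3, at 156 and 189 CPM against 128 and 112 CPM, did not pass (adjusted p = 0.098). The 5 that were higher in MDAPCa2a differed by less: CD151, a tetraspanin partner of integrins, by 1.55, DAG1 (dystroglycan) by 1.27, LAMC1 by 1.13, ITGAV by 0.72 and COL4A5 by 0.50. LAMC1 did not pass without RWPE replicate 1 (adjusted p = 0.0921), RWPE replicate 2 (0.0638) or MDAPCa2a replicate 1 (0.075), and ITGAV not without RWPE replicate 2 (0.0921) or MDAPCa2a replicate 1 (0.195). COL4A5 did not pass without any 1 of the 4 libraries (adjusted p = 0.0524 to 0.224), in DESeq2 (0.0764), with its size factors in edgeR (0.0855), with total counts (0.0964) or with no filter (0.163).

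Cell junction genes held members on both sides, with 28 of 29 tested: 15 were lower, 7 higher and 6 did not pass (median -0.88). Desmosomal cadherins of stratified epithelium were lower: DSG3 was at 126 and 127 CPM in RWPE and 0.0894 and 0.0829 CPM in MDAPCa2a (-10.45 ± 0.54), and DSC3 at 113 and 106 CPM against 0.238 and 0.193 CPM (-8.97 ± 0.49). Classical cadherins were not alike: CDH3 (P-cadherin) was at 628 and 663 CPM against 95.7 and 85.2 CPM (-2.84 ± 0.35), while CDH1 (E-cadherin), at 543 and 503 CPM against 703 and 660.0 CPM, did not pass (adjusted p = 0.12). CDH4, at 113 and 102 CPM in RWPE and 0.656 and 0.829 CPM in MDAPCa2a, was lower by far more (-7.16 ± 0.60). Tight junction claudins went both ways: CLDN3 was at 235 and 256 CPM in MDAPCa2a and 0.797 and 1.14 CPM in RWPE (7.97 ± 0.43) and CLDN4 at 453 and 455 CPM against 56.5 and 78.6 CPM (2.75 ± 0.33), while CLDN1 was lower, at 0.209 and 0.166 CPM against 19.4 and 21.4 CPM (-6.74 ± 0.68). CTNNB1, which encodes beta-catenin, was higher, at 585 and 519.5 CPM against 175 and 169 CPM (1.68 ± 0.14, adjusted p = 3.3e-10).

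Squamous differentiation genes were mostly lower in MDAPCa2a, by large steps. Of 31 genes 30 were tested, and 25 were lower, 2 higher and 3 did not pass (median -6.99, or -5.80 with 10 members that had 0 reads in a line set at their bound), and for 20 of the 27 called the lower line lay under 0.5% of another line's level. S100A2, a calcium-binding protein of basal keratinocytes, stood at 309.6 and 347 CPM in RWPE and 0.477 and 0.414 CPM in MDAPCa2a (-9.51 ± 0.66). TRIM29 was at 458 and 416 CPM against 1.31 and 1.24 CPM (-8.41 ± 0.50), and SFN, the 14-3-3 sigma protein of stratified epithelium, at 760.2 and 727 CPM against 61 and 72 CPM (-3.48 ± 0.41). The kallikreins of skin lay opposite to those of the prostate: KLK5 was at 21.8 and 27.4 CPM in RWPE and 0 and 0.0552 CPM in MDAPCa2a, a ratio of 861 (95% counting interval 238 to 7111), and KLK10 at 12.7 and 14.2 CPM against 0 and 0 CPM (at least 312-fold lower). The 2 members on the higher side were TGM3, a transglutaminase, at 12 and 10.3 CPM against 0.186 and 0.203 CPM (5.81 ± 0.54), and CNFN at 1.82 and 2.62 CPM against 0.425 and 0.38 CPM (2.45 ± 0.39).

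**Figure D3:**
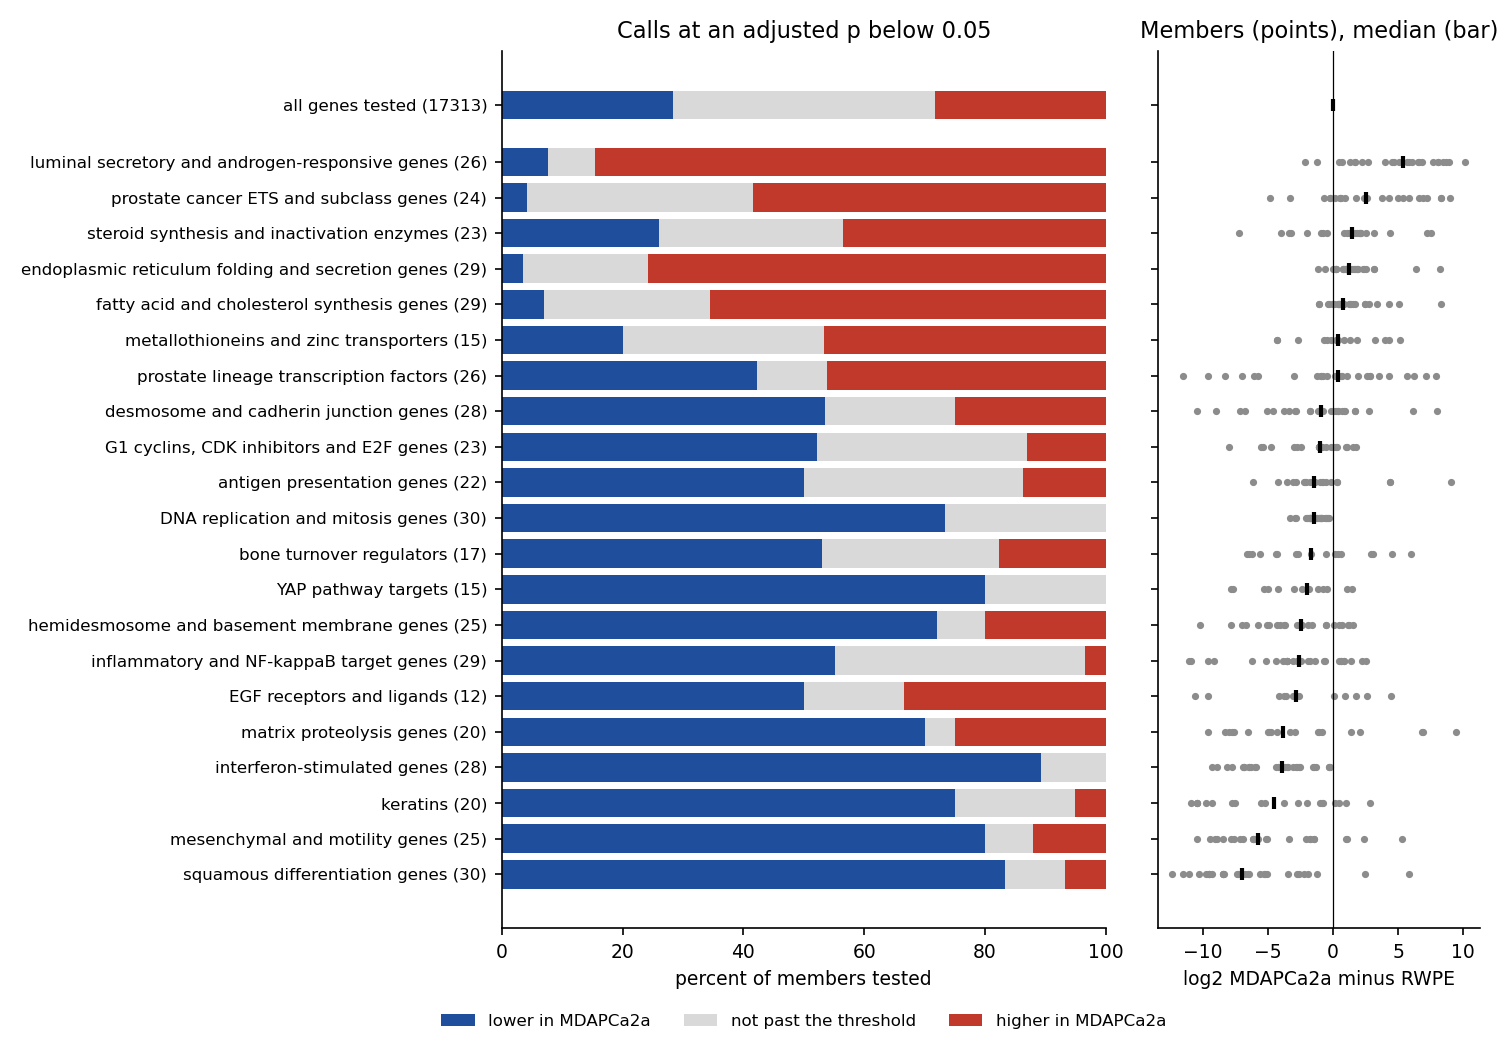
Left: percent of the tested members of each of 21 gene lists that were lower (blue), not past the threshold (grey) or higher (red) in MDAPCa2a, with all 17313 genes in the top bar (28.4% lower, 28.3% higher). Right: log2 difference of each member (points) and the list's median (bar), from 5.38 in the luminal secretory list to -6.99 in the squamous list.

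FN1, which encodes the matrix protein fibronectin, stood against its own list. It was at 10551 and 11100.0 CPM in MDAPCa2a and 169.6 and 366 CPM in RWPE, high in both MDAPCa2a libraries (5.34 ± 0.41, adjusted p = 6.3e-11; 6.0 without RWPE replicate 2), although LNCaP and VCaP on plastic were at 832 and 74.9 CPM. Of 25 mesenchymal and motility genes, 20 were lower in MDAPCa2a, 3 higher and 2 did not pass (median -5.76). VIM (vimentin, the intermediate filament of mesenchymal cells) was at 233 and 195 CPM in RWPE and 7.18 and 5.41 CPM in MDAPCa2a (-5.09 ± 0.46). CD44, the hyaluronan receptor, was at 341 and 374 CPM against 3.4 and 2.46 CPM (-6.93 ± 0.52). AXL, a receptor tyrosine kinase, was at 161 and 143 CPM against 0.358 and 0.221 CPM (-9.02 ± 0.52), and CAV2 of the caveolae at 125 and 138 CPM against 0.268 and 0.11 CPM (-9.42 ± 0.49; -10.17 without MDAPCa2a replicate 1). Each was high in both RWPE libraries and at or below 10 CPM in both MDAPCa2a libraries. Beside FN1, the members on the higher side were TPM1 (338 and 320.1 CPM against 64.2 and 65 CPM, 2.35 ± 0.27) and TWIST1 (13.4 and 14.4 CPM against 6.06 and 6.87 CPM, 1.10 ± 0.28).

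Genes of the pathway of YAP, the coactivator that responds to cell shape and stiffness, were lower in 12 of 15 cases and higher in 0. The median was -2.01, and 3 did not pass. At an unadjusted p below 0.05 in edgeR 1 was higher, and in DESeq2 0. Beside targets, the 15 include YAP1, TEAD1 and WWTR1 of the pathway itself. AMOTL2, a feedback inhibitor in this pathway, was at 333 and 400.5 CPM in RWPE and 21.6 and 17.5 CPM in MDAPCa2a (-4.23 ± 0.28). PTPN14, a phosphatase that binds YAP, was at 174 and 175 CPM against 1.16 and 0.58 CPM (-7.65 ± 0.41; -8.24 without MDAPCa2a replicate 1). YAP1 itself was at 236 and 225 CPM against 180.3 and 161 CPM and did not pass (adjusted p = 0.18), while its DNA-binding partner TEAD1 (-2.96) and its paralog WWTR1 (-2.34) were lower.

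Receptors and ligands of the EGF family differed in kind. EGFR was at 430.2 and 364 CPM in RWPE and 55.6 and 39.4 CPM in MDAPCa2a (-3.06 ± 0.46, adjusted p = 3.1e-06). Of its relatives, 2 went the opposite way, ERBB2 at 461 and 465 CPM in MDAPCa2a against 135 and 137 CPM (1.77 ± 0.25) and ERBB3 at 373 and 316 CPM against 61.5 and 52.7 CPM (2.59 ± 0.29). Among ligands of EGFR, AREG was at 30.2 and 27.6 CPM in RWPE and 0.0298 and 0 CPM in MDAPCa2a (a ratio of 2013 (95% counting interval 361 to 79555)), and EREG at 65.7 and 53.5 CPM against 0.0298 and 0.11 CPM (-9.61 ± 0.68; -10.77 without MDAPCa2a replicate 2). TGFA, another ligand, was at 218 and 198 CPM in MDAPCa2a and 106 and 113 CPM in RWPE (0.92 ± 0.29), and did not pass without RWPE replicate 1 (adjusted p = 0.0612) or MDAPCa2a replicate 1 (0.0535). EGF itself, at 4.8 and 3.31 CPM against 0.159 and 0.203 CPM, was higher in MDAPCa2a (4.45 ± 0.36). EGF was a component of the RWPE medium and not, by the labels, of the MDAPCa2a medium; its part in these differences cannot be told apart from that of the line. In all, 6 of the 12 members were lower, 4 higher and 2 did not pass (median -2.84, or -1.46 with 1 member that had 0 reads in a line set at its bound).

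Of 21 matrix proteolysis genes 20 were tested, and 14 were lower, 5 higher and 1 did not pass (median -3.81). MMP14, the membrane-bound collagenase, stood at 495 and 452 CPM in RWPE and 0.566 and 0.663 CPM in MDAPCa2a (-9.58 ± 0.45). PLAU (urokinase) was at 94.1 and 62.4 CPM against 0.209 and 0.276 CPM (-8.30 ± 0.93). MMP7 (matrilysin) went the other way and was among the 12 largest rises of genes with at least 50 CPM in the higher line, at 287 and 242 CPM in MDAPCa2a and 0.239 and 0.507 CPM in RWPE (9.45 ± 0.53, adjusted p = 2.4e-13; 10.08 without RWPE replicate 2). MMP10 was at 71.1 and 45.2 CPM against 0.718 and 0.279 CPM (6.86 ± 0.76; 7.66 without RWPE replicate 1), and the transmembrane proteases HPN, or hepsin, at 113 and 103 CPM against 0.159 and 1.62 CPM (6.90 ± 0.56; 9.36 without RWPE replicate 2) and ST14 (matriptase) at 399 and 416 CPM against 157 and 157 CPM (1.38 ± 0.20) were higher too.

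Bone turnover regulators were mostly low in both lines: 17 of 26 were tested, and 9 were lower, 3 higher and 5 did not pass. DKK1, a secreted inhibitor of WNT signals and of bone formation, was at 9.91 and 13.5 CPM in RWPE and 0.119 and 0.11 CPM in MDAPCa2a (-6.62 ± 0.61). PTHLH, the parathyroid-hormone-like peptide, was at 8.67 and 10.8 CPM against 0.507 and 0.414 CPM (-4.39 ± 0.61), and BMP7 at 5.42 and 11.3 CPM against 0.119 and 0.221 CPM (-5.57 ± 0.44; -4.94 without RWPE replicate 2). EDN1 (endothelin 1) was higher in MDAPCa2a, at 5.04 and 5.66 CPM against 0.744 and 0.633 CPM (2.95 ± 0.60), as was ENPP1, an enzyme that makes pyrophosphate, at 15.1 and 14.7 CPM against 0.239 and 0.228 CPM (5.97 ± 0.41). TNFSF11 (RANK ligand) had 0 reads in all 4 libraries.

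Genes of lipid synthesis were mostly higher in MDAPCa2a, by steps smaller than those of the luminal genes. Of 29 fatty acid and cholesterol genes 19 were higher, 2 lower and 8 did not pass (median 0.75). FASN, the fatty acid synthase, was at 3005 and 3957 CPM in MDAPCa2a and 487 and 542 CPM in RWPE (2.76 ± 0.29, adjusted p = 1.6e-08). ELOVL5, a fatty acid elongase, was at 666 and 692 CPM against 113 and 128 CPM (2.50 ± 0.24). These levels did not overlap between the lines. The desaturase FADS2 was among the lower members (-1.06).

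Of 25 enzymes of steroid synthesis and inactivation 23 were tested, and 10 were higher, 6 lower and 7 did not pass (median 1.47). HSD11B2, which turns cortisol into cortisone, was at 87.9 and 99.4 CPM in MDAPCa2a and 3.56 and 5.5 CPM in RWPE (4.37 ± 0.45). SRD5A1, a steroid 5-alpha reductase, was at 106 and 78 CPM against 24.7 and 21.7 CPM (1.99 ± 0.21). The aldo-keto reductase AKR1C3, which makes testosterone from androstenedione, was at 3.46 and 3.07 CPM in RWPE and 0.894 and 0.773 CPM in MDAPCa2a (-1.96 ± 0.49), and AKR1C2 at 5.95 and 6.43 CPM against 0.209 and 0.58 CPM (-3.95 ± 0.60; -4.88 without MDAPCa2a replicate 2). Among the glucuronosyltransferases that inactivate androgens, UGT2B11 was at 8.34 and 7.32 CPM in MDAPCa2a and 0.0266 and 0.0507 CPM in RWPE, a ratio of 201 (95% counting interval 68.3 to 977). Both families have near-identical copies, so counts may be split among members.

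Genes of protein folding and export in the endoplasmic reticulum were higher in 22 of 29 cases, lower in 1 and not past the threshold in 6 (median 1.21). CREB3L1, a membrane-bound transcription factor of secretory cells that was among the 12 largest rises of genes with at least 50 CPM in the higher line, stood at 432 and 420.2 CPM in MDAPCa2a and 0.771 and 0.988 CPM in RWPE (8.91 ± 0.52). In the list itself, CALR (calreticulin) was at 2018 and 2095 CPM against 693 and 642 CPM (1.62 ± 0.18), PDIA4, a disulfide isomerase, at 523 and 515 CPM against 100.1 and 96.1 CPM (2.40 ± 0.21), and AGR2, an isomerase of secretory epithelium, at 119 and 96.9 CPM against 1.3 and 1.24 CPM (6.40 ± 0.45). HSPA5 (BiP), the main chaperone of the compartment, was the 1 member that went the other way, at 1778 and 1765 CPM against 4343 and 3642 CPM (-1.17 ± 0.26, adjusted p = 0.00036). HERPUD1, which serves degradation of misfolded proteins, was at 441 and 394 CPM against 74 and 71.7 CPM (2.52 ± 0.14).

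Genes of antigen presentation lay on both sides. Of 22 genes 11 were lower, 3 higher and 8 did not pass (median -1.43; 14 or 13 lower with 2 other scalings). B2M, the light chain of class I molecules, was at 548 and 507 CPM in RWPE and 304 and 299.6 CPM in MDAPCa2a (-0.80 ± 0.33, adjusted p = 0.04); B2M did not pass without any 1 of the 4 libraries (0.0785 to 0.123). HLA chains are alike in sequence and vary between people, so reads may be lost or shared differently in the 2 lines. The 3 members that were higher were the class II genes HLA-DRA, HLA-DRB1 and HLA-DMA. HLA-DRA, the alpha chain of HLA-DR and normally a gene of antigen-presenting cells, stood at 1437 and 1586 CPM in MDAPCa2a and 2.1 and 3.6 CPM in RWPE (9.05 ± 0.52, adjusted p = 3.2e-13), with LNCaP at 4.54 and VCaP at 2.55 CPM.

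The class II genes and their regulators were then all looked up, a family chosen after these values were seen, so that its counts only describe it. Of 23 such genes measured 20 were tested, and 12 were higher, 3 lower (HLA-DPA1, HLA-DOB and RFXAP) and 5 did not pass. Some were as high in another cancer line: VCaP on plastic had means of 55.1 CPM for HLA-DMB and 12.1 CPM for HLA-DRB1. The MDAPCa2a means of these were 41.6 and 10.9 CPM. HLA-DQB2 was at 0.164 CPM in LNCaP and 0.18 CPM in VCaP. HLA-DQB1 was at 158 and 174 CPM in MDAPCa2a and 1.38 and 0.887 CPM in RWPE (7.19 ± 0.34), HLA-DQB2 at 54.4 and 60.5 CPM against 0.186 and 0.152 CPM (8.37 ± 0.48), and HLA-DMB, of the peptide-loading dimer, at 43.9 and 39.2 CPM against 0.292 and 0.659 CPM (6.43 ± 0.57; 7.13 without RWPE replicate 2). HLA-DQA1, the alpha chain that pairs with HLA-DQ beta chains, had 1.13 and 1.63 CPM in MDAPCa2a and 0.0266 and 0 CPM in RWPE, a ratio of 107 (95% counting interval 18.8 to 4277). CIITA, the master coactivator of class II genes, was at 0.179 and 0.11 CPM in MDAPCa2a and 0.691 and 0.608 CPM in RWPE, and CD74, which escorts class II dimers, at 6.2 and 4.7 CPM against 16.9 and 14.2 CPM; neither passed (adjusted p = 0.058 and 0.051), though both were lower in MDAPCa2a with other scalings (log2 differences of -2.23 and -1.61 with DESeq2's size factors). RFX5, which binds class II promoters, was at 109 and 112 CPM against 46.9 and 42.2 CPM (1.31 ± 0.15). CD74 stood between 4.7 and 16.9 CPM in the 8 plastic control libraries, which hold the liver transcripts, and on ACP at 0.287 and 0.202 CPM in MDAPCa2a and 0.125, 0.53 and 0.271 CPM in RWPE (log2 difference -0.34, adjusted p = 0.81); whether its level on plastic came with those transcripts was not tested.

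The promoters of the 2 HLA-DQ beta genes that were high are shown with the Y box in capitals, an element known to be bound by NF-Y (CTGATTGG).
They are RefSeq sequence (GRCh38.p14, minus strand), HLA-DQB1 at chr6:32666658-32666907 and HLA-DQB2 at chr6:32763533-32763782.
HLA-DQB1: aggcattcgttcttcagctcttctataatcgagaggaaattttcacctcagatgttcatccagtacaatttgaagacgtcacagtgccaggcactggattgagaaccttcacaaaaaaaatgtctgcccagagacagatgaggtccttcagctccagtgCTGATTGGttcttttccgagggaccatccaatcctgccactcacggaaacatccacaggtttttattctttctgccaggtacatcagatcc
HLA-DQB2: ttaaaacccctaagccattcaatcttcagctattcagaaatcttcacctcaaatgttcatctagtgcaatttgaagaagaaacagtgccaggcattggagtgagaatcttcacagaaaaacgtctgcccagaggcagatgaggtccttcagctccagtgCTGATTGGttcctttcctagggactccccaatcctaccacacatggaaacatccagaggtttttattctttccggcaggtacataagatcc

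The box lies at bases -91 to -84 in both, and unshifted the sequences are identical at 151 of 250 positions (60.4%). It was found in 4 of the 6 class II promoters in the table, with HLA-DRB1 (-49 to -42) and HLA-DMA (-82 to -75) as the others, and in 1337 of all 35116 promoters (3.81%), searched on both strands. The letters do not show binding.

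The interferon-stimulated genes went one way: 25 of 28 were lower, 0 higher and 3 did not pass (median -3.93); 0 were higher at an unadjusted p below 0.05 or in DESeq2. OASL, an antiviral sensor, was at 175 and 285 CPM in RWPE and 0.298 and 0.442 CPM in MDAPCa2a (-9.25 ± 0.83, adjusted p = 7.9e-10). IFIT1 was at 107 and 154 CPM against 0.328 and 0.221 CPM (-8.88 ± 1.07), and ISG15, a ubiquitin-like modifier, at 232 and 391 CPM against 28.2 and 30.1 CPM (-3.42 ± 0.55). IRF7, a factor that drives interferon genes, differed by -2.78. Both RWPE libraries were above both MDAPCa2a libraries in each.

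Of 30 inflammatory and NF-kappaB target genes 29 were tested, and 16 were lower, 1 higher and 12 did not pass (median -2.60). IL18, a cytokine of epithelia, was at 39.3 and 57.4 CPM in RWPE and 0.0894 and 0.0276 CPM in MDAPCa2a (-9.61 ± 0.56; -10.57 without MDAPCa2a replicate 1). IL1B was at 9.41 and 9.7 CPM in RWPE and had 0 reads in both MDAPCa2a libraries, at least 222-fold lower, and LCN2 (lipocalin 2) was at 129.7 and 68.2 CPM against 1.88 and 0.829 CPM (-6.20 ± 0.52; -6.91 without MDAPCa2a replicate 1). BIRC3, an inhibitor of apoptosis induced by NF-kappaB, was the 1 member on the higher side, at 175 and 112 CPM against 21.7 and 27.6 CPM (2.54 ± 0.74, adjusted p = 0.0052; 0.0514 without RWPE replicate 1). NFKB1, a subunit of NF-kappaB itself, was at 135 and 128 CPM against 85.4 and 85.7 CPM and did not pass (adjusted p = 0.06).

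Most inhibitors of the G1 phase that differed were lower in MDAPCa2a. CDKN2A, which encodes p16, was at 446 and 461 CPM in RWPE and 8.43 and 11 CPM in MDAPCa2a (-5.54 ± 0.33, adjusted p = 6.9e-13), and its neighbour CDKN2B at 76.7 and 79.8 CPM against 3.04 and 2.9 CPM (-4.72 ± 0.36). CDKN1A (p21) was at 1249 and 1212 CPM against 202 and 242 CPM (-2.47 ± 0.32), while CDKN1B (p27) was higher in MDAPCa2a, at 259 and 263 CPM against 78.8 and 70.5 CPM (1.81 ± 0.16). The D cyclins lay on opposite sides: CCND2 was at 134 and 122 CPM in RWPE and 0.656 and 0.359 CPM in MDAPCa2a (-7.98 ± 0.39), and CCND1 at 568 and 574 CPM in MDAPCa2a and 175 and 219 CPM in RWPE (1.54 ± 0.24). Of the 23 genes of this list 12 were lower, 3 higher and 8 did not pass (median -0.99).

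DNA replication and mitosis genes were lower in 22 of 30 cases, higher in 0, and 8 did not pass (median -1.48); 0 were higher at an unadjusted p below 0.05 or in DESeq2. MKI67, the proliferation antigen, was at 291 and 259 CPM in RWPE and 57.2 and 139 CPM in MDAPCa2a (-1.49 ± 0.63, adjusted p = 0.048). AURKA, a mitotic kinase, was at 198 and 215 CPM against 15.3 and 26.7 CPM (-3.30 ± 0.36), and MCM2, of the replicative helicase, at 248 and 245 CPM against 29.6 and 37.7 CPM (-2.87 ± 0.32). The MDAPCa2a libraries differed from each other here: 29 of the 30 genes were higher in replicate 2, by a median of 1.77 times, where the median over all genes was 1.01 and that of this list in RWPE was 1. Without MDAPCa2a replicate 1 the count of lower members was 11 in place of 22, and the differences of MKI67 and AURKA were -1.01 and -2.97; without replicate 2 that of MKI67 was -2.28. MKI67 did not pass without MDAPCa2a replicate 1 (adjusted p = 0.304), RWPE replicate 1 (0.121) or RWPE replicate 2 (0.0853). Against the other cancer lines on plastic, which share the MDAPCa2a libraries, 10 members were lower than in LNCaP (against 21% of all genes) and 25 lower than in VCaP (against 27.3%), and 0 were higher in edgeR.

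Metallothioneins and zinc transporters lay on different sides. MT2A, a metal-binding protein, was at 788 and 863 CPM in RWPE and 36.3 and 45.9 CPM in MDAPCa2a (-4.33 ± 0.51), and MT1E and MT1X were lower too, although MT1G was higher; their copies are near-identical and counts may be split. SLC39A6, a zinc importer, was at 977 and 884 CPM in MDAPCa2a and 46.7 and 46.5 CPM in RWPE (4.32 ± 0.21), and SLC30A4, an exporter into vesicles, at 87.5 and 76.4 CPM against 4.78 and 5.6 CPM (3.98 ± 0.40). Of 18 members 15 were tested, and 7 were higher, 3 lower (4 with scaling by total counts) and 5 did not pass (median 0.37).

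Genes that mark subclasses of prostate cancer, 24 of 25 of them tested, were higher in 14 cases, lower in 1 and not past the threshold in 9 (median 2.53, or 2.15 with 1 member that had 0 reads in a line set at its bound). ETV1, an ETS factor, was at 1215 and 1039 CPM in MDAPCa2a and 6.8 and 8.56 CPM in RWPE (7.20 ± 0.35, adjusted p = 2.4e-14), with LNCaP at 295 and VCaP at 2.76 CPM. AMACR, a peroxisomal racemase used in tumour diagnosis, was at 84.3 and 83.7 CPM against 4.09 and 4.23 CPM (4.33 ± 0.31), and GDF15, a secreted stress factor, at 3342 and 3603 CPM against 269.6 and 251 CPM (3.74 ± 0.51). The non-coding RNA PCA3 was at 8.73 and 9.28 CPM against 0 and 0.0253 CPM, a ratio of 695 (95% counting interval 124 to 27500), and SCHLAP1, another, at 8.88 and 7.43 CPM against 0.0266 and 0.127 CPM (6.63 ± 0.49; 8.03 without RWPE replicate 2). All of these were higher in both MDAPCa2a libraries than in either RWPE library.

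Among genes with at least 50 CPM in the higher line, the 12 largest rises also held genes of no list above. PRCAT47, a long non-coding RNA, was at 93.4 and 96.6 CPM in MDAPCa2a and 0.0797 and 0.177 CPM in RWPE (9.47 ± 0.66); PPP1R1B, the phosphatase regulator DARPP-32, at 611 and 575 CPM against 0.771 and 1.11 CPM (9.29 ± 0.34); and DDC, which makes dopamine and serotonin, at 137 and 124 CPM against 0.133 and 0.329 CPM (9.10 ± 0.78). TOX3 (9.34), DAPL1 (8.95), FFAR2 (8.92), a receptor for short fatty acids, MAGEA12 (8.91) and ARHGAP6 (8.75) complete them beside KLK3, MMP7, HLA-DRA and CREB3L1. Without RWPE replicate 2 the differences of PRCAT47, DDC and TOX3 were 10.14, 9.89 and 10.37. That of MAGEA12 was 13.77, fitted over 0 reads in the RWPE library left, so its size is not fixed. The 12 largest falls held genes of the basal and keratin lists (KRT5, KRT6A, KRT16, COL17A1 and DSG3), BNC1 and 6 others. With at least 50 CPM in RWPE these are the largest by the fitted value. H19, an imprinted non-coding RNA, was at 95.4 and 114 CPM in RWPE and 0.119 and 0.0552 CPM in MDAPCa2a (-10.17 ± 0.89), HMGA2, a chromatin protein of fetal tissue, at 63.8 and 57 CPM against 0 and 0.11 CPM (-9.94 ± 0.80), and MIR205HG, host transcript of a basal microRNA, at 132 and 137 CPM against 0.0298 and 0.11 CPM (-10.79 ± 0.64). DFNA5, which encodes gasdermin E (a ratio of 2628 (95% counting interval 727 to 21703)), RAB38 (-10.12) and GPAT2 (-9.90) were the others. Without MDAPCa2a replicate 1 H19 and GPAT2 stood at -10.79 and -10.87, and without replicate 2 MIR205HG stood at -11.95. HMGA2 without replicate 2 was at -13.70, fitted over 0 CPM in the MDAPCa2a library left, so its size is not fixed.

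Markers of other cell types, 10 for each type, were low in both lines with the exceptions of CD68 and COL1A1 in RWPE. For neuroendocrine cells, 2 of 7 tested were higher, SYP (1.59) and INSM1 (2.57; 2.03, not passing, without RWPE replicate 1, 3.42 without RWPE replicate 2), and 1 lower, CHGB (-2.72), with no level above 3 CPM; 3 further markers, NEUROD1, CALCA and GRP, had at most 1 read a library. Of 5 lymphoid and myeloid markers tested 3 were lower, CD68 (104 and 109 CPM in RWPE, 0.536 and 0.884 CPM in MDAPCa2a), CD14 and CSF1R, while PTPRC stayed under 0.2 CPM. Of 7 fibroblast markers 1 was lower, COL1A1 (28.2 and 25.2 CPM against 2.5 and 2.96 CPM, -3.29 ± 0.33), and of 8 endothelial markers 2 were higher and 1 lower, all under 3 CPM. In the MDAPCa2a libraries, in which the class II genes were high, PTPRC, CD79A and MS4A1 stayed under 0.2 CPM. Summed liver markers were at 10.1 to 16.3 CPM in MDAPCa2a and 18.6 to 20.8 CPM in RWPE on plastic, and at 2.18 to 3.04 and 0.941 to 1.71 CPM on ACP.

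The comparison between the same lines on ACP with androgen uses other libraries, other medium and no protein coating, so it shows how far the line difference holds when these change together. There 11090 genes (64.1%) passed, 5167 (29.8%) higher and 5923 (34.2%) lower in MDAPCa2a. Of the 4903 genes higher on plastic, 3849 (78.5%) were called higher on ACP and 108 (2.2%) lower; of the 4914 lower on plastic, 3997 (81.3%) were called lower and 24 (0.488%) higher. The 7846 shared calls make up 79.9% of those on plastic and 70.7% of those on ACP. KLK3 was at 6779 and 7296 CPM in the MDAPCa2a libraries and 16.9, 8.47 and 7.19 CPM in the RWPE libraries there (9.35 ± 0.61), KRT5 at 3.27 and 9.26 against 2352, 6643 and 3065 CPM (-9.32 ± 1.58), and HLA-DRA at 2955 and 2114 against 3.95, 5.12 and 2.98 CPM (9.31 ± 0.44). In each of these the lines stood apart on ACP as on plastic, without overlap. On ACP, 24 of 26 luminal secretory genes were higher, 28 of 30 squamous genes lower, 23 of 28 interferon-stimulated genes lower and 27 of 30 replication and mitosis genes lower. Other lists moved more. YAP pathway genes were lower in 8 cases and higher in 2 on ACP, against 12 and 0 on plastic. Inflammatory genes were lower in 20 and higher in 0, against 16 and 1. Bone turnover regulators were lower in 5 cases and higher in 4, with a median of 0.52 on ACP and -1.65 on plastic, and endoplasmic reticulum genes higher in 19 and lower in 4, against 22 and 1.

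The change in the line difference between the conditions was tested by an interaction term, which 2419 genes (14%) passed, 1658 (9.58%) with a more positive difference on plastic and 761 (4.4%) with a more negative one. This count and its split depend on the processing and on single libraries: it was 433 without MDAPCa2a replicate 2 on ACP, and scaling by total counts turned the share of positive values from 68.5% to 28.5%. FN1 was at 33.9, 42.5 and 46.8 CPM in RWPE and 13441 and 13925 CPM in MDAPCa2a on ACP, a difference of 8.38 ± 0.39 against 5.34 on plastic (interaction -3.04, adjusted p = 0.00082). BIRC3 was higher in MDAPCa2a on plastic (2.54) and at 61.7 and 19.8 CPM against 114, 136 and 91.3 CPM on ACP (-1.48 ± 0.68, interaction 4.02, adjusted p = 0.011). SAA1, an acute-phase protein, had the largest positive fitted interaction of genes with at least 20 CPM in 1 of the groups, a place that rests on a group at 0: it was at 3.4 and 6.46 CPM in RWPE on plastic and 25.4, 54.1 and 18.4 CPM on ACP, with MDAPCa2a at 0.417 and 0.442 CPM on plastic and at 0 on ACP (fitted value 9.30, adjusted p = 0.0054). With 3 counts over both MDAPCa2a libraries on ACP as the floor, its interaction is at least 5.14, so its place in the order is not fixed. VIM was lower in MDAPCa2a in both conditions, and more so on ACP, at 0.459 and 0.0506 CPM against 106, 109 and 115 CPM (3.71), and so was AKR1C3, at 0.0574 and 0.101 CPM against 26.4, 16.5 and 11.7 CPM (5.77). RPPH1 and RMRP, the RNAs of the RNase P and MRP enzymes, which lack a polyA tail, came next by the fitted value (8.36 and 7.92), but on plastic were high in MDAPCa2a replicate 1 alone. RPPH1 was at 32.3 and 0.414 CPM there and 0.51 above RWPE without that library, and RMRP at 23.8 and 0.635 CPM and 0.69, with no call left for either (adjusted p = 0.904 and 0.791). The most negative values were those of CUX2 (-4.08), a homeobox factor, AFAP1L2 (-3.90) and CDH4 (-3.85); CDH4 was at 7.78, 10.3 and 13.8 CPM in RWPE on ACP, against 113 and 102 CPM on plastic.

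**Figure D4:**
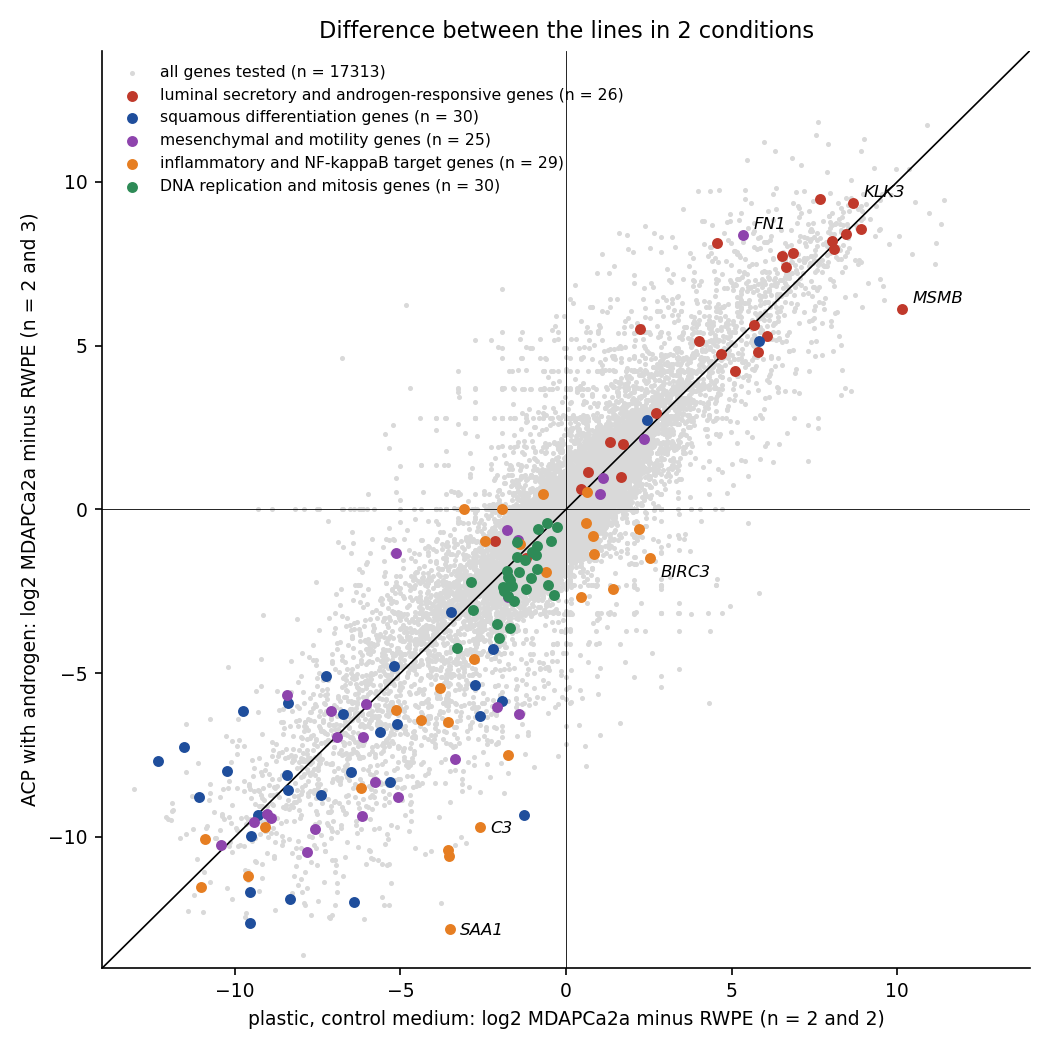
Log2 difference between the lines on plastic (x axis, n = 2 and 2) and on ACP with androgen (y axis, n = 2 and 3) for the 17313 genes tested, with members of 5 lists coloured; the diagonal marks equal differences. Most luminal genes lie in the upper right and most squamous, mesenchymal and mitosis genes in the lower left, while FN1, SAA1 and BIRC3 lie off the diagonal.

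Compared with LNCaP and VCaP on plastic, which share the MDAPCa2a libraries with the comparison above, 6964 genes (40.2%) and 9077 genes (52.4%) passed. Of the 26 luminal genes 11 were higher and 7 lower than in LNCaP (median 0.54), and 8 higher and 11 lower than in VCaP (median -0.40), so members went both ways and more of them differed than among all genes. Of the 30 squamous genes 1 was higher and 3 lower than in LNCaP (median -0.46), and 2 higher and 3 lower than in VCaP (median 0). Of all genes, 19.2% were higher and 21% lower than in LNCaP, and 25.1% and 27.3% than in VCaP. In MDAPCa2a on plastic, 26 of the 31 squamous genes in the list were under 1 CPM and 12 had 0 reads. The few calls and the medians near 0 therefore do not show equal levels. Genes that passed in the same direction against all 3 other lines were ranked by the smallest of their 3 differences, and the first 6 on each side are given. MMP20, a protease known from tooth enamel, was at 36.2 and 28.5 CPM in MDAPCa2a and 0 and 0.133 CPM in LNCaP, 0.0876 and 0.0241 CPM in VCaP and 0 and 0.0507 CPM in RWPE. PPP1R1B was at 1.1 and 2.3 CPM in LNCaP and 0.73 and 0.868 CPM in VCaP, against 611 and 575 CPM in MDAPCa2a. HPSE2 (79.5 and 56.5 CPM in MDAPCa2a), a heparanase-like protein, CEACAM20 (96.2 and 79.9 CPM), HLA-DRA and HLA-DQB2 were the others on the higher side. On the lower side, the homeobox gene IRX2 was at 0.0298 and 0 CPM in MDAPCa2a against 43 and 41 CPM in RWPE, 7.62 and 5.37 CPM in LNCaP and 7.45 and 4.68 CPM in VCaP. PRSS16, a thymus protease, was at 0.0894 and 0.0552 CPM against 26.9 and 26.9 CPM in RWPE, 18.8 and 17.5 CPM in LNCaP and 10.8 and 7.88 CPM in VCaP, and NUDT16, a nucleotide hydrolase, at 0.596 and 0.359 CPM against 45.3 and 52.8, 83.5 and 74.4 and 84.1 and 125 CPM in the same order. SH3BGRL2 (0.0894 and 0.11 CPM in MDAPCa2a), SIMC1 (0.0596 and 0.138 CPM) and NLRP2 (0.328 and 0.249 CPM) showed the same, with SH3BGRL2 between 10.7 and 25.8 CPM, SIMC1 between 14.9 and 21.3 CPM and NLRP2 between 30.6 and 49.0 CPM in the libraries of the other lines. In each of these 12 genes no MDAPCa2a library overlapped a library of another line, which largely follows from the rule that picked them.

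**Figure D5:**
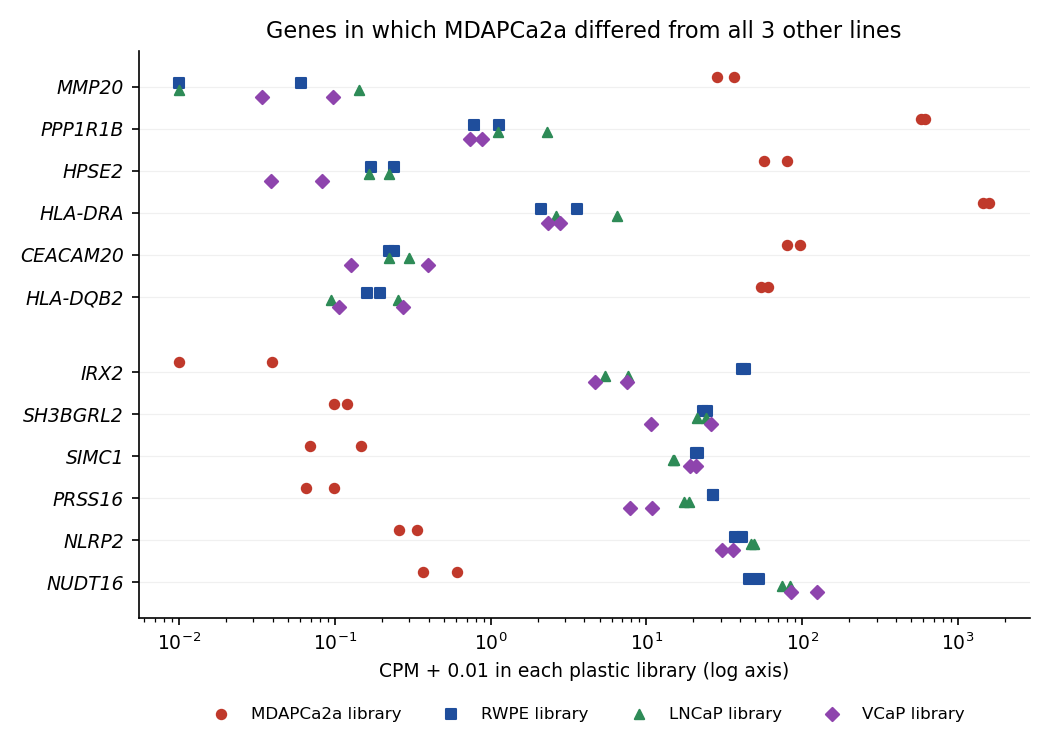
CPM (x axis, log scale, 0.01 CPM added) in each plastic control library of MDAPCa2a, RWPE, LNCaP and VCaP (2 libraries a line) for the 6 genes furthest above and the 6 furthest below all other lines, by the smallest of the 3 differences. The MDAPCa2a points lie to the right of all others in the upper 6 rows and to the left in the lower 6.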

How the data were processed

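PolyA-selected RNA was sequenced from 34 libraries in 17 groups. The authors deposited 1 table of whole-number read counts per gene (26336 symbols), made with STAR, HTSeq and hg19 per the submitters' processing notes; the sources used here do not give versions, annotation or strand setting. The deposited counts of RWPE held 16 values of 12 genes between 44562 and 44889, each at least 5 times above the gene's other RWPE counts, in the range of spreadsheet dates; these genes were left out.

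All 34 libraries were fitted with edgeR 4.0.16 (R 4.3.3; scaling by TMM; filterByExpr, minimum count 10; 1 coefficient a group; 17 residual degrees of freedom, quasi-likelihood F test), which tested 17313 genes in 5 comparisons, each with Benjamini-Hochberg adjustment at 0.05. CPM values use the TMM-scaled library sizes. Alternatives were other scalings, no filter, DESeq2 1.42.0, fewer libraries, the replicate number as a block, and each library left out. The fit was tested on simulated data with 200 changed genes a run. Replicate numbers are shared by the lines. The deviations of same-numbered plastic libraries of MDAPCa2a and RWPE correlated at 0.014 over 10403 genes, and the main fit used no block. A correlation in 1 pair of groups cannot exclude a batch shared by replicate number.

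Members and gene lists (21 pathway and 7 marker lists) were chosen with earlier results of these data known, so counts over lists are descriptions. Genes were named by rule: the 12 largest rises and 12 largest falls with at least 50 CPM in the higher line and no overlap; in each list the 5 members of highest level and the largest rise and fall with at least 5 CPM; 6 genes on each side that differed from all other lines (at least 20 CPM); 3 on each side for the interaction; marker genes; and list members named for what they do; some genes under the rule are not reported here. A count of 3 over both libraries of a line was the floor where a line had 0 reads, which covers counting error only. Promoters came from RefSeq (GRCh38.p14), 250 bases before each start, and were matched by symbol; TMPRSS2, MSMB, FOLH1 and HLA-DRA were not in the table used.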

Additional observations from a re-analysis of the deposited data

Results flagged for a closer look

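The line difference on plastic differed from that on ACP with androgen for 26 of the 197 named genes that were tested. The test was the interaction term of edgeR's fit (adjusted p below 0.05), which 2419 of all 17313 genes (14%) passed. The 26 are therefore no special set, and some were named by rule for the size of that interaction. Each value below is the log2 difference on plastic minus that on ACP. In 4 genes the fitted difference had opposite signs in the 2 conditions: BIRC3 (4.02), LAMA3 (-1.72), RPPH1 (8.36) and RMRP (7.92). LAMA3, a laminin chain, was -0.52 on plastic and 1.21 on ACP. Among adhesion and mesenchymal genes the values were -3.04 for FN1, -3.85 for CDH4, -2.02 for ITGB4 and 3.71 for VIM, and for TEAD1, the partner of YAP, -1.53. FN1, CUX2 (-4.08), FASN (-1.37), GATA2 (-0.97), SOX9 (-1.45) and CCND1 (-1.14) were higher in MDAPCa2a in both conditions, with the larger difference on ACP; CDKN1B (0.91), EGF (1.76), HERPUD1 (1.13), SRD5A1 (0.82), PDK1 (1.37) and S100P (2.48) were higher in both, with the larger difference on plastic. AKR1C2 (3.30), AKR1C3 (5.77) and SAA1 (9.30, fitted over 0 reads in MDAPCa2a on ACP, and at least 5.14 with the floor of 3 counts) were lower in both, with the larger difference on ACP, while AFAP1L2 (-3.90), IRX2 (-3.37, with 1 read in MDAPCa2a on plastic) and FKBP5 (-1.19) were lower by more on plastic. The conditions differ in surface, serum, androgen, coating and the liver transcripts found on plastic, whose parts cannot be told apart. With 1 library left out, 2 (without RWPE replicate 3 on ACP) to 18 (without MDAPCa2a replicate 2 on ACP) of these 26 genes no longer passed, and none changed sign in those refits.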

How the results depend on the processing

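The count of genes past the threshold between MDAPCa2a and RWPE on plastic was 8224 to 8310 with 1 library left out and 9616 to 11662 under the other refits, each within 1.5 times of 9817. A line left with 1 library was assumed to vary like the other groups. The counts were 9288 to 11023 on ACP, 5127 to 5272 against LNCaP and 7182 to 7905 against VCaP with 1 library left out. The interaction count was less stable: 433 (without MDAPCa2a replicate 2 on ACP) to 3637 (without RWPE replicate 3 on ACP) around 2419, and 3659 with the replicate block; the block changed no other count over all genes by over 1.5 times, and 1 list count (inflammatory genes higher, 2 in place of 1). Its share of positive calls was 68.5%, but 54.5% with RLE size factors, 28.5% with total counts, 47.8% with no filter and 53.4% with DESeq2. With total counts the share of higher calls went from 46.6% to 56.1% on ACP and from 47.8% to 37.7% against LNCaP. Of 672 recomputed list counts 34 moved by over 1.5 times, 9 of them with only the 4 libraries fitted. Of 187 named genes called on plastic, 47 had a fold that moved by over 1.5 times with 1 library left out, most often RWPE replicate 2 (24 genes); FGG, which was not called, was -0.578 to 0.185 with 1 library left out, reversing without MDAPCa2a replicate 2. The cause of these changes was not tested. Depth limited genes with few reads in 1 line, whose ratios have wide counting intervals.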

Other observations

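Several gene families that stood in no list were looked up after their values had been seen, so their counts only describe them. Of 24 MAGE-A, MAGE-B and MAGE-C genes, which are normally silent outside the testis and placenta, 10 had enough reads to be tested and 14 were at or near 0 in both lines. The 10 tested were called higher in MDAPCa2a, a direction that the count filter largely set, since RWPE was at or near 0 for the whole family. MAGEA3 was at 101 and 110.3 CPM in MDAPCa2a and 0.159 and 0.583 CPM in RWPE, and MAGEA6 at 106 and 112 CPM against 0.213 and 0.431 CPM. On plastic, LNCaP had means of 129 and 107 CPM for these genes, and VCaP 0.404 and 0.293 CPM. The sequences of MAGEA3 and MAGEA6 are nearly the same, so reads may be split. Without RWPE replicate 2 their differences were 9.33 and 8.97 in place of 8.12 and 8.37. MAGEC1, at 10.8 and 12.4 CPM, had 0 reads in both RWPE libraries, at least 298-fold higher in MDAPCa2a.

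Of 21 glutathione S-transferases 17 were tested, 11 higher, 4 lower and 2 not passing. GSTP1, which is known to be silenced in most prostate cancers, was at 878 and 878 CPM in RWPE and 1.4 and 1.63 CPM in MDAPCa2a (-9.17 ± 0.62, edgeR adjusted p = 6e-12). GSTT1 lay opposite, at 45.4 and 57.3 CPM in MDAPCa2a and 0.425 and 0.38 CPM in RWPE (6.98 ± 0.38), as did GSTA1, at 41.5 and 42.4 CPM against 0.239 and 0.405 CPM (7.0 ± 0.67). The 7 insulin-like growth factor binding proteins split evenly, 3 higher, 3 lower and 1 not passing: IGFBP3 was at 1232 and 998 CPM in MDAPCa2a and 1.91 and 4.71 CPM in RWPE (8.39 ± 0.98; 9.18 without RWPE replicate 2), while IGFBP6 was at 90.1 and 143 CPM in RWPE and 0.238 and 0.276 CPM in MDAPCa2a (-8.79 ± 0.64) and IGFBP7 at 139 and 136 CPM against 0.507 and 0.497 CPM (-8.09 ± 0.60).

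Of 18 S100 proteins 15 were tested and 9 were lower, 1 higher and 5 did not pass. The 1 on the higher side was S100P, at 904 and 798 CPM in MDAPCa2a and 3.91 and 6.74 CPM in RWPE (7.32 ± 0.67); S100A14 was at 645 and 787 CPM in RWPE and 17 and 15.3 CPM in MDAPCa2a (-5.47 ± 0.64) and S100A16 at 339 and 334 CPM against 1.88 and 2.02 CPM (-7.43 ± 0.40). Of 20 gap junction proteins 13 were tested and 9 were lower, 2 higher and 2 did not pass. Of the higher ones GJC3 was at 2.95 and 3.89 CPM in MDAPCa2a and 0.0532 and 0.076 CPM in RWPE (5.63 ± 0.71).

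Of the genes of lactate and pyruvate handling, LDHB, the subunit that favours lactate use, was at 613 and 669 CPM in RWPE and 6.97 and 6.63 CPM in MDAPCa2a (-6.56 ± 0.32), while LDHA, at 599 and 638 CPM against 435 and 527 CPM, did not pass (adjusted p = 0.23). The pyruvate dehydrogenase kinase PDK1 was at 84 and 81.7 CPM in MDAPCa2a and 13.6 and 12.9 CPM in RWPE (2.65 ± 0.31), and the lactate and pyruvate carrier SLC16A7 at 19 and 19.8 CPM in RWPE and 0.0894 and 0.166 CPM in MDAPCa2a (-7.19 ± 0.50). For every gene named here as called, the libraries of the 2 lines did not overlap.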
